A study of Homo sapiens with 12 samples.

Results

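The GADD45 family consists of 3 human genes, GADD45A, GADD45B and GADD45G, whose names stand for growth arrest and DNA damage inducible. The members were selected by gene name from the 58735 genes of the count table, because GADD45G had been seen to respond far more strongly to hydrogen peroxide in one of the cell lines studied than in the other. That pattern is therefore described here without a test. All 3 members passed the filter on low counts, under which 16618 genes were tested.

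HaCaT, an immortalized line of human skin keratinocytes, was compared with TIGK, a line of gingival keratinocytes that is likewise immortalized. Both were kept in DermaLife K Keratinocyte Complete Medium, grown to confluency, and left untreated or exposed to 5 mM H2O2 for 3 h. Polyadenylated RNA was sequenced from 3 libraries of each of the 4 groups, called HaCaT control, HaCaT H2O2, TIGK control and TIGK H2O2. The treatment label of replicates 2 and 3 of the exposed groups reads H2O3 and H2O4, whereas the protocol of all libraries names H2O2. The labels do not say that replicates were separate cultures, so p-values measure the spread between these libraries, which may be technical.

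GADD45 proteins are small acidic proteins without enzyme activity of their own, and they act by binding partners. They activate the kinase MAP3K4, which lies above the p38 and JNK stress kinases, they inhibit the mitotic kinase CDK1 with cyclin B1, and they take part in DNA repair and in active DNA demethylation. In epithelial cells their transcripts are known to be induced quickly by genotoxic and oxidative stress, with GADD45A a classical target of DNA damage signaling, GADD45B of NF-kB and TGF-beta signaling, and GADD45G of cytokines and stress kinases.

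GADD45A (ENSG00000116717) lies on chromosome 1 at 67685061 to 67688338, GADD45B (ENSG00000099860) on chromosome 19 at 2476122 to 2478259, and GADD45G (ENSG00000130222) on chromosome 9 at 89605013 to 89606555, all on the plus strand of GRCh38. In the count table, 0 other genes overlapped any of them on either strand. Promoters of 2 of the 3 members, GADD45B and GADD45G, were found in the RefSeq promoter table of GRCh38.p14, which holds 35116 windows of 300 bases from 250 bases before to 50 after a gene start. The 250 bases before the start are shown for these 2 members because only they were found there, and capitals mark the motif matches described beneath. Of the 2, GADD45G had the larger log2 fold change with H2O2 in HaCaT and GADD45B had it in TIGK. The stretch of GADD45B is chr19:2475877-2476126 and that of GADD45G is chr9:89604762-89605011, both on the plus strand.
GADD45B: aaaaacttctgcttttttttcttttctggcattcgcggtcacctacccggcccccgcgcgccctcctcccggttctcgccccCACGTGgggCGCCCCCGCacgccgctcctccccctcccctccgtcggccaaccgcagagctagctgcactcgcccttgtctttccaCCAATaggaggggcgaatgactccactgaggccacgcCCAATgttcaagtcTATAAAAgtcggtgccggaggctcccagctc
GADD45G: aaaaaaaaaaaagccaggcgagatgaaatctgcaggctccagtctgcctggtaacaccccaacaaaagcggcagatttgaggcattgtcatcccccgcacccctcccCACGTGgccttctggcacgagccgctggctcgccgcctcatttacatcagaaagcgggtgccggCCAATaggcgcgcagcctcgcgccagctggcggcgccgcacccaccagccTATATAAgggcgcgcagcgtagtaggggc

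Both promoters held a TATA box, a CCAAT box and an E-box in the same order. The TATA box (TATANAA), the binding site of the TATA-binding protein, lay at -31 to -25 in GADD45B and at -29 to -23 in GADD45G, with the start counted as 0, and was found in 9.10% of all promoter windows. The CCAAT box (CCAAT), the site of the factor NF-Y, was matched at -82 to -78 and at -45 to -41 in GADD45B and at -79 to -75 in GADD45G, and was found in 34.6% of windows. The E-box (CACGTG), bound by factors such as MYC with MAX and USF1, lay at -168 to -163 in GADD45B and at -143 to -138 in GADD45G, and was found in 7.26% of windows. The site of the immediate early factor EGR1 (GCGNGGGCG) was matched once on the minus strand of GADD45B, at -159 to -151, and not in GADD45G. This motif was found in 9.43% of windows.

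Neither promoter window held the other 5 motifs searched. These were AP-1 (TGANTCA, 7.71% of windows), CRE (TGACGTCA, 1.85%), FOXO (GTAAACA, 3.42%), the GC box (GGGCGG, 45.0%) and the heat shock element (GAANNTTC, 6.77%). Both strands of the 300 bases were searched and the matches of different motifs did not overlap. GC content was 61.7% in the GADD45B window and 62.7% in that of GADD45G, against a median of 58.7% over all windows. A match is a run of letters, and whether a factor binds there in these cells was not measured.

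**Figure D1:**
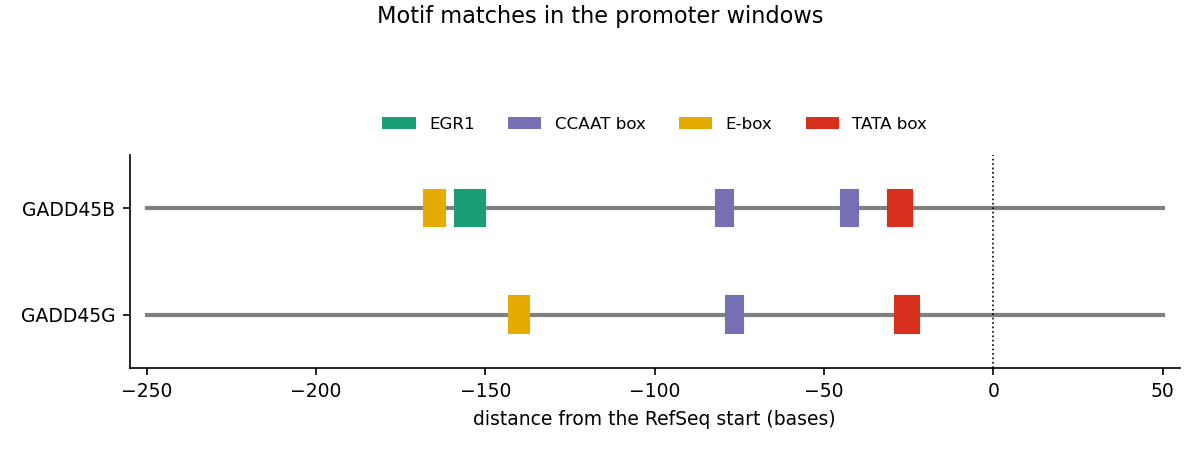
Positions of the motif matches in the promoter windows of GADD45B and GADD45G, with the distance from the RefSeq start in bases on the horizontal axis and the start as a dotted line at 0. The TATA, CCAAT and E-box matches stand in the same order in both, and the EGR1 match at -159 to -151 is in GADD45B.

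Library totals lay between 30426401 and 49034244 counts. All 11 keratinocyte markers examined, such as KRT5 and KRT14, had a mean count of at least 10 in every group, and their summed level was 15992 to 16783 RPKM in HaCaT control, 17367 to 19131 in HaCaT H2O2, 15911 to 16425 in TIGK control and 17589 to 18682 in TIGK H2O2. RPKM is the read count scaled for gene length and library size. The 6 fibroblast markers summed to 0.884 to 1.17, 0.907 to 1.12, 2.15 to 2.27 and 2.43 to 2.50 RPKM in the same order of groups, with COL1A2 at 0 in every group. The 4 melanocyte markers reached at most 0.724 RPKM in any library and the 3 endothelial markers at most 0.158. The 4 immune cell markers reached at most 0.208 RPKM in HaCaT and 1.82 in TIGK, where CD14 averaged 1.47 without and 1.48 with H2O2. The share of counts on mitochondrial genes was 6.10% to 6.26% in HaCaT control, 3.30% to 3.51% in HaCaT H2O2, 3.33% to 3.45% in TIGK control and 1.39% in the lowest library of TIGK H2O2. It was lower after H2O2 in both lines without overlap of the libraries, and its part in the responses given here was not tested.

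GADD45A, the classical DNA damage-induced member, rose with H2O2 in both lines. Its normalized counts, which are counts scaled to a common library size, were 1780, 1660 and 1768 in HaCaT control, and 3043, 3166 and 3118 in HaCaT H2O2. In TIGK control they were 3862, 3368 and 3135, and in TIGK H2O2 they were 8223, 8210 and 9003. In each line every exposed library lay above every control library. How many of all genes tested separate in this way was not computed, neither here nor for the other members and comparisons. In bulk RNA such as this, a change of the RNA per cell and a change in the share of cells that carry it cannot be told apart.

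The rise of GADD45A was 1.79-fold in HaCaT (log2 fold change 0.84, SE 0.0692, adjusted p = 2.66e-08 by edgeR's quasi-likelihood test) and 2.45-fold in TIGK (log2 fold change 1.30, SE 0.0676, adjusted p = 4.4e-11). For comparison, 18.9% of all genes tested were called higher in HaCaT and 10.2% in TIGK at the limit of 0.01 on the adjusted p. The exposed libraries stood 1.75-, 1.82- and 1.80-fold above the mean of the controls in HaCaT, and 2.38-, 2.38- and 2.61-fold above it in TIGK. The exposed libraries of the lines thus did not overlap on this scale, which leaves out the spread of the controls.

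GADD45B, the member known for NF-kB and TGF-beta control, had overlapping levels in the untreated lines and rose in both. Its normalized counts were 743, 582 and 611 in HaCaT control and 735, 618 and 602 in TIGK control. After H2O2 they were 1340, 1919 and 1747 in HaCaT and 2681, 2463 and 2732 in TIGK. The control libraries of the lines overlapped, and all exposed libraries lay above them, with those of TIGK above those of HaCaT. The rise was 2.57-fold in HaCaT (log2 fold change 1.36, SE 0.118, adjusted p = 4.95e-08, edgeR) and 4.03-fold in TIGK (log2 fold change 2.01, SE 0.118, adjusted p = 2.48e-10). Single exposed libraries stood 2.07- to 2.97-fold above the control mean in HaCaT and 3.78- to 4.19-fold above it in TIGK.

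GADD45G, the cytokine- and stress-induced member, was the one with the fewest reads. Its raw counts were 11, 15 and 6 in HaCaT control, which carry exact 95% Poisson intervals of 5.49 to 19.7, 8.40 to 24.7 and 2.20 to 13.1 for counting error alone. In HaCaT H2O2 they were 134, 231 and 315. In TIGK they were 43, 64 and 43 without H2O2, and 93, 78 and 102 with it. Every HaCaT control library was thus below every other library, and every HaCaT H2O2 library was above every other.

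In normalized counts GADD45G stood at 8.40, 16.6 and 5.92 in HaCaT control and at 149, 269 and 336 in HaCaT H2O2. In TIGK control it stood at 43.7, 66.4 and 44.9, and in TIGK H2O2 at 108, 74.2 and 80.8. The groups of each line did not overlap, although the gap in TIGK was small, from 66.4 to 74.2. As a description of the values that chose it, GADD45G was 24.8-fold higher with H2O2 in HaCaT (log2 fold change 4.63, SE 0.370) and 1.69-fold higher in TIGK (log2 fold change 0.75, SE 0.310). By size of its log2 fold change it ranked 25 of 16618 genes in HaCaT and 2205 in TIGK, while GADD45B ranked 1078 and 235 and GADD45A 2432 and 753. The exposed HaCaT libraries stood 14.5-, 26.1- and 32.6-fold above the control mean, and the exposed TIGK libraries 2.09-, 1.44- and 1.56-fold.

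**Figure D2:**
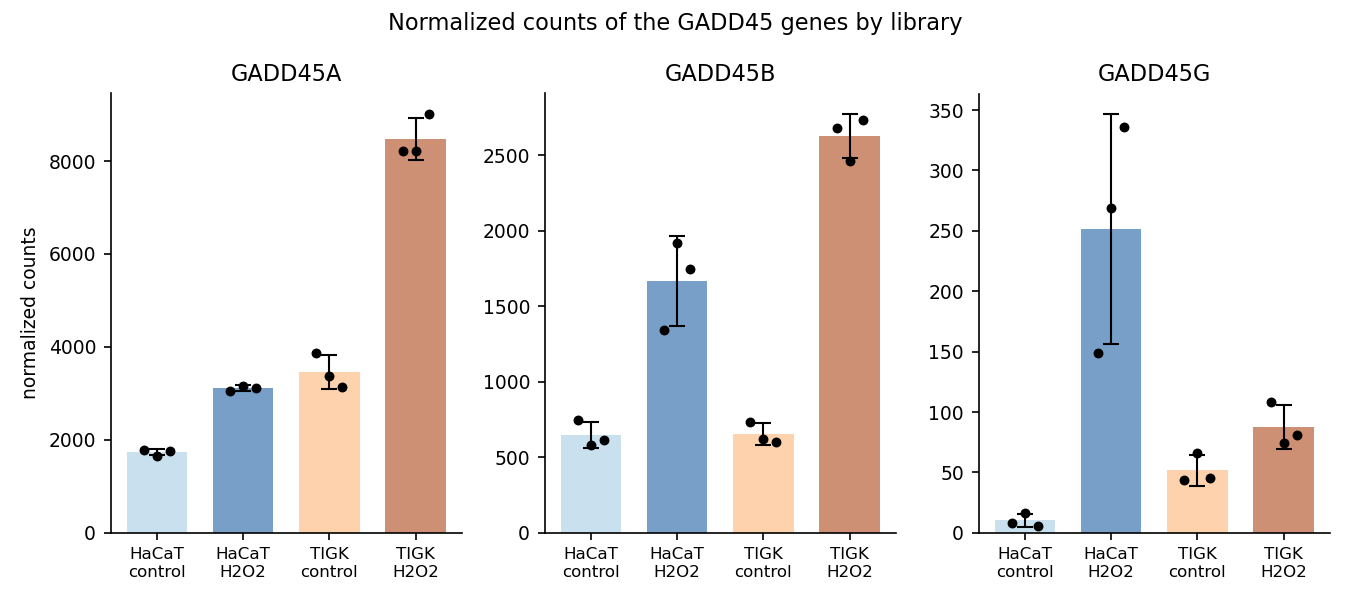
Normalized counts of GADD45A, GADD45B and GADD45G in the 4 groups, each panel on its own linear axis from 0, with points for the 3 libraries of a group, bars for the mean and error bars for the SD. GADD45A and GADD45B are highest in TIGK H2O2 (means 8479 and 2626), and GADD45G is highest in HaCaT H2O2 (mean 252).

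The replicates of GADD45G varied more, relative to their mean, than those of its relatives. Counting error alone is relatively larger for the member with the fewest reads, and its part in this was not tested. The coefficient of variation of GADD45G was 54.1% in HaCaT control, 37.7% in HaCaT H2O2, 24.6% in TIGK control and 20.4% in TIGK H2O2. For GADD45A it ran from 2.00% to 10.8% over the 4 groups and for GADD45B from 5.45% to 17.8%. In HaCaT H2O2, replicate 1 was lowest for all 3 members.

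The responses of the lines were then compared directly, as the difference of the log2 fold changes, HaCaT minus TIGK. GADD45A rose less in HaCaT, by -0.46 (SE 0.0959, 95% interval -0.66 to -0.25, adjusted p = 0.00434, edgeR), a call that 2.32% of genes shared in that direction and 2.98% had in the other. That call was lost without HaCaT control replicate 1 (adjusted p = 0.0155) and without HaCaT control replicate 3 (adjusted p = 0.0135). GADD45B had a difference of -0.65 (SE 0.165, interval -0.99 to -0.30), which missed the limit (adjusted p = 0.0149, edgeR). It missed it in 13 of 19 alternatives too, such as without HaCaT control replicate 1 (adjusted p = 0.0560, edgeR). It passed without HaCaT H2O2 replicate 1 (adjusted p = 0.00942) or 2 (adjusted p = 0.00800), with DESeq2 (adjusted p = 0.00211) and with filterByExpr (adjusted p = 0.0092). It also passed without a filter (adjusted p = 3.95e-07), a fit that lowered other adjusted p as well, for the GADD45A response in TIGK to 1.51e-86. GADD45G had a difference of 3.88 (SE 0.492) in the opposite direction, given as a description. These differences rest on the same libraries as the responses of each line.

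**Figure D3:**
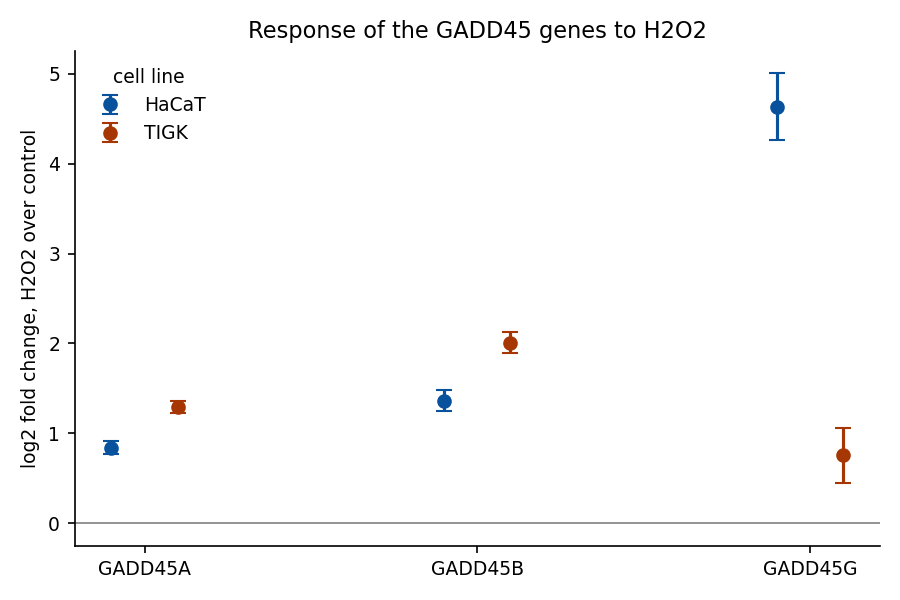
Log2 fold change of the GADD45 genes, H2O2 over control, in HaCaT and TIGK, with error bars for the SE derived from the F statistic of the fit. GADD45A (0.84 and 1.30) and GADD45B (1.36 and 2.01) lie lower in HaCaT, and GADD45G (4.63 and 0.75) lies higher.

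Between the untreated lines, GADD45A was lower in HaCaT by 0.99 on the log2 scale (log2 difference -0.99, SE 0.0691, adjusted p = 2.03e-10, edgeR), or 1.99-fold. At baseline 29.1% of genes were called higher in HaCaT and 30.8% lower. GADD45B did not pass the limit, with a log2 difference of -0.01 (interval -0.26 to 0.25, adjusted p = 0.955). GADD45G stood 5.11-fold lower in HaCaT (log2 difference -2.35, SE 0.402), without overlap of the libraries.

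After H2O2, GADD45A was 2.73-fold lower in HaCaT than in TIGK (log2 difference -1.45, SE 0.0681, adjusted p = 5.9e-13, edgeR). GADD45B was 1.57-fold lower (log2 difference -0.65, SE 0.112, adjusted p = 3.71e-05). GADD45G stood 2.88-fold higher in HaCaT (log2 difference 1.53, SE 0.286), so its order between the lines was the opposite of that at baseline. Over all genes tested, 30.2% were called higher and 29.8% lower in HaCaT after H2O2. The 2 comparisons of the lines use the same libraries as the responses.

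Ordered by level, GADD45A was lowest in HaCaT control, followed by HaCaT H2O2, TIGK control and TIGK H2O2, and the libraries of HaCaT H2O2 and TIGK control overlapped. For GADD45B the control groups came first and did not differ beyond their spread, followed by HaCaT H2O2 and TIGK H2O2. For GADD45G the order was HaCaT control, TIGK control, TIGK H2O2 and HaCaT H2O2, with no overlap between neighbours.

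Levels were compared between the members per gene length, as RPKM. GADD45A had the highest RPKM level of the family in every group, with 23.1 ± 0.881 (SD, n = 3) in HaCaT control, 41.4 ± 0.830 in HaCaT H2O2, 46.0 ± 4.95 in TIGK control and 113 ± 6.05 in TIGK H2O2. GADD45B had RPKM levels of 8.33 ± 1.11, 21.5 ± 3.84, 8.40 ± 0.938 and 33.9 ± 1.85 in the same groups. GADD45G had the lowest RPKM levels, at 0.215 ± 0.116, 5.25 ± 1.98, 1.08 ± 0.265 and 1.83 ± 0.372. Even where it was highest, GADD45G remained under GADD45B in each library.

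The summed RPKM level of the family was 31.7 ± 1.75 (SD, n = 3) in HaCaT control and 68.2 ± 6.33 in HaCaT H2O2. In TIGK it was 55.5 ± 5.80 without and 149 ± 7.35 with H2O2. GADD45A made up 73.1% ± 2.00 of that sum in HaCaT control, 61.1% ± 4.76 in HaCaT H2O2, 82.9% ± 0.255 in TIGK control and 76.0% ± 0.997 in TIGK H2O2. The share of GADD45A was lower after H2O2 in each line without overlap of the libraries.

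GADD45B made up 26.2% ± 2.10 of the summed RPKM in HaCaT control and 31.4% ± 2.89 in HaCaT H2O2, where the libraries overlapped, and 15.1% ± 0.382 and 22.8% ± 0.735 in TIGK, where they did not. GADD45G made up 0.689% ± 0.407 in HaCaT control and 7.57% ± 2.39 in HaCaT H2O2, against 1.96% ± 0.546 and 1.23% ± 0.264 in TIGK. The share in HaCaT control was 0.458% without replicate 2. The GADD45G share was higher with H2O2 in every HaCaT library, while in TIGK the libraries with and without H2O2 overlapped.

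**Figure D4:**
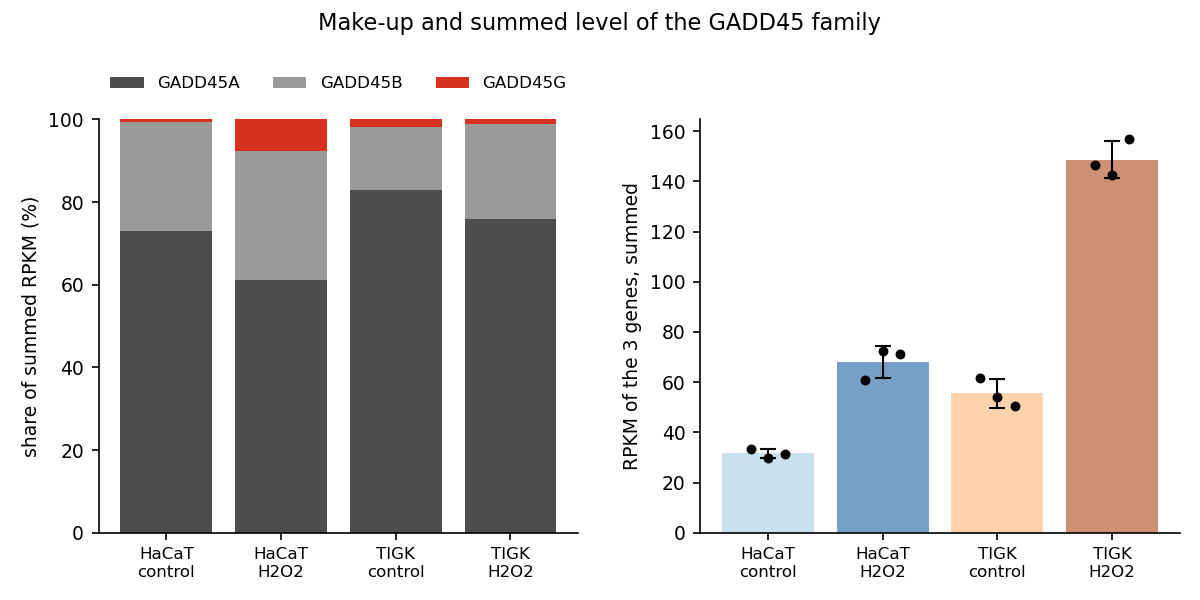
Left, mean share of each GADD45 gene in the summed RPKM of the family, in percent, for the 4 groups. Right, the summed RPKM by library, with points for libraries, bars for means and error bars for the SD; it is highest in TIGK H2O2 (149), and the GADD45G share is largest in HaCaT H2O2 (7.57%).

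Genes that act on the GADD45 genes or with their proteins were examined in 4 lists of 40 genes in all, of which 39 were tested. The lists were written with earlier results of these data known, and the part of that choice in the counts was not tested. In HaCaT 12 of the 39 rose, 5 fell and 22 did not pass the limit, with a median log2 fold change of 0.08 against 0.04 over all genes. In TIGK 13 rose, 5 fell and 21 did not pass, with a median of 0.15 against 0.01. Over all genes, 18.9% were called higher and 15.2% lower in HaCaT, and 10.2% higher and 12.9% lower in TIGK. The count of list genes that fell was 3 in HaCaT without HaCaT H2O2 replicate 2, and in TIGK it was 2 without TIGK H2O2 replicate 2 and 3 without TIGK control replicate 2 or without TIGK H2O2 replicate 1 or 3.

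Of the 15 transcriptional regulators tested, 4 rose and 3 fell in HaCaT, where 18.9% of all genes were called higher and 15.2% lower. In TIGK 6 rose and 3 fell, against 10.2% and 12.9% of all genes. EGR1, an immediate early zinc finger factor, had the largest rise of the list in both lines, with normalized counts of 967 ± 169 (SD, n = 3) before and 61409 ± 6245 after exposure of HaCaT, and of 3722 ± 384 before and 57281 ± 5223 after exposure of TIGK. Its log2 fold changes were 5.99 (SE 0.128, adjusted p = 1.3e-16, edgeR) and 3.94 (SE 0.115, adjusted p = 9.01e-15), each over its own control. EGR1 was lower in untreated HaCaT than in untreated TIGK (log2 difference -1.95, adjusted p = 1.08e-11, edgeR), and after H2O2 the log2 difference of 0.10 (SE 0.101) did not pass the limit (adjusted p = 0.391).

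ATF4, a factor of the integrated stress response, rose by 0.67 (SE 0.0780) on the log2 scale in HaCaT and by 0.46 (SE 0.0778) in TIGK. NFYA, a subunit of the CCAAT-binding factor NF-Y, rose by 0.30 (SE 0.0758) and 0.31 (SE 0.0751). MYC, a known repressor of GADD45A, rose in TIGK from 22156 ± 930 to 37475 ± 1176 normalized counts (log2 fold change 0.76, adjusted p = 1.71e-09, edgeR), while in HaCaT its log2 fold change was -0.14 (adjusted p = 0.0263). For NFYA the log2 responses of the lines thus lay within their standard errors of each other.

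POU2F1, the octamer factor OCT1 that binds the GADD45A promoter, had the largest fall of the list, with log2 fold changes of -1.11 (SE 0.0987) in HaCaT and -0.87 (SE 0.0982) in TIGK. FOXO3, an activator of GADD45A in quiescent and stressed cells, had log2 fold changes of -0.45 (SE 0.0687) and -0.29 (SE 0.0682). SMAD3, which carries TGF-beta signals, fell in HaCaT (log2 fold change -0.56, SE 0.0543) and had a log2 fold change of 0.11 in TIGK (adjusted p = 0.115, edgeR). WT1 was the regulator with too few counts to be tested.

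MAP3K4 and the p38 and JNK kinases under it formed a list of 12 genes. Of these, 1 rose and 2 fell in HaCaT, where 18.9% of all genes were called higher and 15.2% lower. In TIGK 2 rose and 2 fell, against 10.2% and 12.9% of all genes. MAPK14, which encodes p38 alpha, rose by 0.20 (SE 0.0578) on the log2 scale in HaCaT and by 0.33 (SE 0.0574) in TIGK, and MAPK13, which encodes p38 delta, rose by 0.25 (SE 0.0559) in TIGK. MAP3K4 itself, the direct partner of the GADD45 proteins, had log2 fold changes of -0.28 (SE 0.0673, adjusted p = 0.00207, edgeR) in HaCaT and -0.23 (SE 0.0661, adjusted p = 0.0105) in TIGK. MAP2K4, which activates JNK and p38, had log2 fold changes of -0.25 in both lines (SE 0.0569 and 0.0582), and MAP2K3, which activates p38, had -0.40 (SE 0.0698) in TIGK. In the difference of the responses, 0 of the 12 kinases passed the limit with edgeR, where 2.98% of all genes were called higher and 2.32% lower. At such shares, 0 of 12 is not a result about the kinases. With DESeq2 0 passed, and 4 had an unadjusted p under 0.05 with edgeR. The shares over all genes for these last 2 counts were not computed.

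Of the 10 partners in the cell cycle, repair and demethylation, 5 rose and 0 fell in HaCaT, and 3 rose and 0 fell in TIGK. The shares over all genes were 18.9% higher and 15.2% lower in HaCaT, and 10.2% and 12.9% in TIGK. At such shares, 0 falls among 10 genes is not a result about the partners. AURKA, a mitotic kinase that GADD45A is known to restrain, rose by 0.85 (SE 0.0669) on the log2 scale in HaCaT and by 0.76 (SE 0.0664) in TIGK. CCNB1, the cyclin B1 that forms with CDK1 the kinase that GADD45 proteins inhibit, rose by 0.75 (SE 0.0683) on the log2 scale in HaCaT. In TIGK it had a log2 fold change of 0.15 (adjusted p = 0.0834, edgeR). CDKN1A, which encodes the cyclin-dependent kinase inhibitor p21, rose in TIGK from 5871 ± 678 to 9000 ± 323 normalized counts (log2 fold change 0.62, adjusted p = 3.88e-06, edgeR). In HaCaT it went from 10588 ± 336 to 11578 ± 1001 (log2 fold change 0.13, adjusted p = 0.163).

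The 2 other growth arrest and DNA damage genes, which share the name but not the protein family, rose in both lines. PPP1R15A, or GADD34, which directs a phosphatase to eIF2 alpha, had normalized counts of 2073 ± 130 and 9346 ± 832 in HaCaT without and with H2O2 and of 3607 ± 389 and 9521 ± 315 in TIGK, with log2 fold changes of 2.17 (SE 0.0786) and 1.40 (SE 0.0761). DDIT3, or GADD153, the stress factor CHOP, rose by 1.00 (SE 0.159) and 1.08 (SE 0.148) on the log2 scale. PPP1R15A rose more in HaCaT (difference 0.77, SE 0.107, adjusted p = 0.000101, edgeR), while the difference for DDIT3 did not pass the limit (-0.07, SE 0.217, adjusted p = 0.880).

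**Figure D5:**
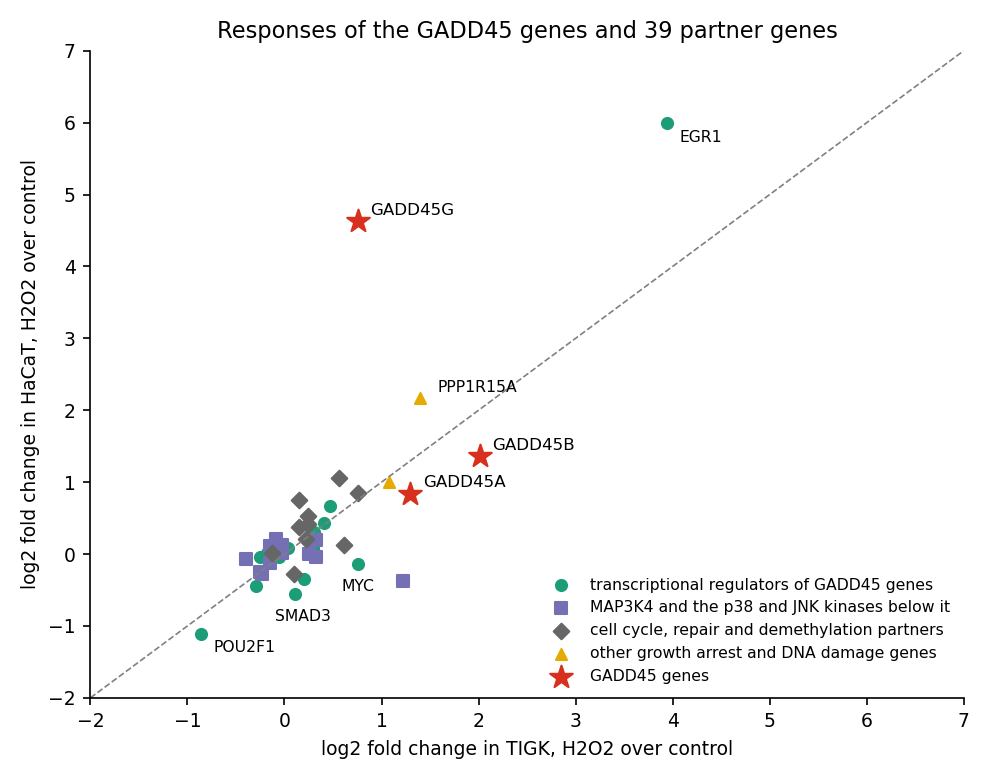
Log2 fold change with H2O2 in HaCaT against that in TIGK for the GADD45 genes and the 39 genes of the 4 lists, with a dashed line where both are equal. EGR1 (5.99 and 3.94), PPP1R15A (2.17 and 1.40) and GADD45G (4.63 and 0.75) lie above the line, and GADD45A (0.84 and 1.30) and GADD45B (1.36 and 2.01) lie under it.

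The genes whose log2 CPM followed each member most closely over the 12 libraries were sought among 12979 genes with a mean of at least 50 normalized counts. Libraries of a group share their line and treatment, so these correlations describe a shared pattern of the 4 groups. For GADD45A the closest were CYR61 (Pearson's r = 0.993), a secreted matrix protein, PDGFC (0.990), a growth factor, and HMGB2 (0.990), a chromatin protein. CYR61 stood at 1638 ± 126 (SD, n = 3) normalized counts in HaCaT control, 5299 ± 296 in HaCaT H2O2, 5038 ± 418 in TIGK control and 24037 ± 756 in TIGK H2O2.

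For GADD45B the 3 closest included IER2 (r = 0.991), an immediate early gene, and CSRNP1 (0.982). IER2 stood at 1880 ± 65.7, 7615 ± 643, 2248 ± 217 and 13603 ± 992 normalized counts in the same order of groups. Like GADD45B, it was highest in TIGK H2O2.

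For GADD45G they were CREG1 (r = 0.970), a lysosomal glycoprotein gene, TMTC4 (0.967), LAMTOR1 (0.958), RABGGTA (0.958) and RFNG (0.951). TMTC4 and LAMTOR1 were also among the 5 closest by Spearman's rho, while 0 of the 3 closest to GADD45A and 0 of the 3 closest to GADD45B by Pearson's r were among the 3 closest by rho. Their range was far narrower than that of GADD45G, with TMTC4 at 395 ± 39.4, 636 ± 14.7, 497 ± 29.2 and 539 ± 11.8 normalized counts. RFNG, which modifies Notch receptors, stood at 474 ± 0.762, 814 ± 50.4, 597 ± 7.15 and 630 ± 26.5.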

How the data were processed

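The deposited counts are whole, unnormalized numbers of reads assigned to each gene on GRCh38, in 1 table that also gives gene lengths in bases. The submitters' processing notes name HISAT2 (2.0.5 and 2.0.0), StringTie (1.3.3b) and featureCounts (1.5.0-p3). Strand, multi-mapped reads and the annotation release are not given in the sources used here. Of the table, 0 lines lacked a gene and 0 sample columns were unused. The other 4 deposited tables hold the authors' own DESeq2 fold changes and p-values and were not used.

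Genes averaging 10 or more raw counts entered edgeR 4.0.16 (R 4.3.3), where TMM scaling preceded 1 quasi-likelihood fit of the 4 groups over the 12 libraries (common dispersion 0.00730, 10.4 prior degrees of freedom). P-values were adjusted by Benjamini-Hochberg over the 16618 genes tested, with a limit of 0.01. Each SE is the absolute log2 value divided by the square root of its quasi-likelihood F statistic, and the intervals use that SE. For GADD45G it is given as a description only. Normalized counts and RPKM use the TMM-scaled totals of the tested genes, and log2 CPM a prior count of 2. Replicate libraries varied beyond counting noise (chi-square per degree of freedom 4.36 to 26.9 over 12 pairs). Genes named were the 3 members, the 2 largest rises and falls of each list past the limit in each response, regulators with a textbook action, and the genes most like each member; the values of 2 genes under this rule are not reported here. Members, lists and motifs were chosen with earlier results of these data known. Alternatives were DESeq2 1.42.0, other scalings and filters, a limit of 0.05, the compared groups alone, a replicate block and leaving out each library. Python 3.11.15 with matplotlib 3.10.9 drew the figures.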

Additional observations from a re-analysis of the deposited data

Results flagged for a closer look

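The test of the difference of the responses, HaCaT minus TIGK on the log2 scale, passed the limit for GADD45A and for 6 of the 39 genes tested in the 4 lists with edgeR's adjusted p, 3 of them higher and 3 lower in HaCaT, while over all genes 2.98% were called higher and 2.32% lower. The 4 lists were written with earlier results of these data known, which limits what such counts show. GADD45A had a difference of -0.46 (SE 0.0959, adjusted p = 0.00434), a call lost without HaCaT control replicate 1 (adjusted p = 0.0155) or 3 (adjusted p = 0.0135). Among the regulators, EGR1 had 2.05 (SE 0.150, adjusted p = 4.91e-08), MYC -0.90 (SE 0.0719, adjusted p = 1.44e-07) and SMAD3 -0.67 (SE 0.0771, adjusted p = 1.23e-05). Among the partners, CCNB1 had 0.59 (SE 0.0961, adjusted p = 0.000477) and CDKN1A -0.49 (SE 0.105, adjusted p = 0.00496). PPP1R15A had 0.77 (SE 0.107, adjusted p = 0.000101). The signed log2 fold change was higher in HaCaT for EGR1, CCNB1 and PPP1R15A and higher in TIGK for GADD45A, MYC, SMAD3 and CDKN1A, with SMAD3 having fallen in HaCaT and not passed the limit in TIGK.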

How the results depend on the processing

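Over 10 results on GADD45A and GADD45B, 181 of 198 alternative values kept their direction and side of the limit. The responses of GADD45A and GADD45B in each line and their differences after H2O2 did so in all 20 alternatives each. GADD45G was not tested, and its alternatives reuse the values that chose it, so they give no support to the pattern. As a description, its log2 fold change ran from 4.37 to 5.08 in HaCaT and from 0.59 to 1.00 in TIGK. The difference of its responses ran from 3.60 to 4.33. Its direction was the same in all 99 values of 5 results, which libraries without overlap made likely beforehand. The GADD45A difference of the responses was -0.46 with the replicate block, where it missed the limit (adjusted p = 0.0115, edgeR), and -0.54 to -0.39 with a library left out. That of GADD45B passed the limit with DESeq2 (-0.67), without a filter (-0.70), with filterByExpr (-0.71) and at a limit of 0.05 (-0.65), and ran from -0.76 to -0.53 with a library left out, with adjusted p from 3.95e-07 to 0.0560 over the alternatives. The GADD45B difference between untreated lines, never past the limit, changed sign without a filter (0.0204), with filterByExpr (0.0125) and within the leave-one-out range of -0.123 to 0.0831. The causes were not tested. Same-numbered libraries did not deviate together (r from -0.12 to 0.03, own number best in 4 of 18), so the numbers do not pair the samples, and the block changed no other call on the members. The difference of the responses needs all 4 groups, so no fit on fewer was run. With 6 to 15 reads of GADD45G in HaCaT control, depth limits the size of its fold.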

Other observations

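Several kinases through which GADD45 proteins act stood at different levels in the lines, whether or not H2O2 was added, and these were chosen after their values were seen. MAPK13, which encodes p38 delta, was higher in TIGK, at 4002 ± 69.5 (SD, n = 3) normalized counts in TIGK control against 1584 ± 90.9 in HaCaT control, a log2 difference of -1.34 (SE 0.0580, adjusted p = 1.62e-13, edgeR). MAPK11, which encodes p38 beta, was higher in HaCaT, at 529 ± 56.6 against 224 ± 24.8 (log2 difference 1.24, SE 0.128, adjusted p = 5.83e-08). MAP2K7, an activator of JNK, was likewise higher in HaCaT, at 2060 ± 86.9 against 1147 ± 126 (log2 difference 0.84, SE 0.0766, adjusted p = 9.5e-09). After H2O2 the log2 differences of MAPK13, MAPK11 and MAP2K7 were -1.60, 1.49 and 0.89. In all, 6 of the 12 kinases were higher and 3 lower in untreated HaCaT, against 29.1% and 30.8% of all genes.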
